A study of Mus musculus with 2 samples.

Results

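The immediate early genes Fos, Fosb, Jun, Junb, Egr1, Ier2, Atf3 and Dusp1 and the inducible heat shock genes Hspa1a and Hspa1b were followed through single-cell RNA-seq libraries of mouse dorsal aorta endothelium. Members were the 10 rows, of 27514 in the count matrix, that carry these gene symbols, and each symbol matched 1 row. In GRCm38.p6 Fos lies at chr12:85473890-85477274, Fosb at chr7:19302696-19310118, Jun at chr4:95049036-95052222, Junb at chr8:84976909-84978748, Ier2 at chr8:84661331-84662852, Atf3 at chr1:191170296-191183333, Dusp1 at chr17:26505591-26508472, Hspa1a at chr17:34969359-34972156 and Hspa1b at chr17:34956429-34959238. The cells came from embryonic day 10.5 (E10.5) embryos of Sp3+/- by Sp3+/- matings on a C57Bl6/J x B6129SF1/J background, either wild type (WT) or SP3-null, which lack the GC box binding transcription factor SP3. Aortic regions were dissociated in 0.125% collagenase for 40 min, stained, pooled by genotype and sorted for Ter119-, CD41 low or negative, CD31+ CD144+ ESAM+ cells. Each genotype was captured as 1 library with a 3′ droplet kit that counts transcripts as unique molecular identifiers (UMIs).

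Immediate early genes are switched on within minutes of a stimulus, without new protein synthesis, through factors that are already present in the cell. FOS and FOSB pair with JUN and JUNB to form the AP-1 transcription factor, EGR1 is a zinc finger transcription factor, ATF3 is a stress-induced factor of the ATF/CREB family, DUSP1 is a phosphatase that switches off MAP kinases, and IER2 is a nuclear immediate early protein. Hspa1a and Hspa1b encode the inducible HSP70 chaperone and are switched on by heat shock factor when proteins unfold. Both groups are known to be induced when tissue is dissociated into single cells, so their transcripts can mark the handling of a sample as well as signals the cells received in the embryo.

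The WT library held 4451 cells with a median of 14664 UMIs and the SP3-null library 3954 cells with a median of 15638.5 UMIs. The deposited classes were arterial (AE) and venous endothelium (VE), each split into Wnt-high and Wnt-low, other endothelium, and the steps toward blood: conflux AE, the pre-hemogenic stage (pre-HE), hemogenic endothelium (HE) and the cells of intra-aortic clusters (IAC). Classes held from 40 to 1624 cells per library, the fewest in SP3-null HE. Levels are given as counts per 1000000 UMIs summed over a set of cells (CPM), and the endothelial sum joins both AE and both VE classes, conflux AE and pre-HE. Sp3 itself stood at 46.3 CPM in the WT and 35.6 CPM in the SP3-null endothelial sum, but a 3′ tag need not lie in the deleted part of the gene, so this does not check the genotype. With 1 library per genotype no test of genotype could be made, and genotype, embryo pool, dissociation and capture cannot be told apart. Intervals cover counting error only and are at a level of 95%.

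The bases before the transcription start are shown for the members that varied most closely together from cell to cell, Fos with Fosb and Hspa1a with Hspa1b, in the 250 bases before the start (RefSeq, GRCm38.p6). They lie at chr12:85473640-85473889 on the plus strand for Fos, and on the minus strand at chr7:19310046-19310295 for Fosb, chr17:34972157-34972406 for Hspa1a and chr17:34959239-34959488 for Hspa1b. Capitals mark GGGCGG (the GC box that SP factors bind) on either strand in all 4, TGACG (the core of the cyclic AMP response element) on either strand in Fos and Fosb, and GAANNTTC (the heat shock element core) in the heat shock genes.
Fos: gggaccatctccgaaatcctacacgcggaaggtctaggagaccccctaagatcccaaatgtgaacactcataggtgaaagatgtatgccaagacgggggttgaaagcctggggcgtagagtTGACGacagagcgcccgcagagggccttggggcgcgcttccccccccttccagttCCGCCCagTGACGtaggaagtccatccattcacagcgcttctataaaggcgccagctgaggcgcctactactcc
Fosb: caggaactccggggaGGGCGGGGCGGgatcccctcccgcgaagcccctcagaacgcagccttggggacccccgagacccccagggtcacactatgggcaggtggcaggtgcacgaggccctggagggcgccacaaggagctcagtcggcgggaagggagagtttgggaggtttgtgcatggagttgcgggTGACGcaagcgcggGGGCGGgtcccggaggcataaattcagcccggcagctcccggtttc
Hspa1a: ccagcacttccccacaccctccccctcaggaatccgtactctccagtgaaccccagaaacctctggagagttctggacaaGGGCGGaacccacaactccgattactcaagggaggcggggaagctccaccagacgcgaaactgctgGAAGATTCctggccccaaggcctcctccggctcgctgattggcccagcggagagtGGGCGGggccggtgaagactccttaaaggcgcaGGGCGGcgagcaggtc
Hspa1b: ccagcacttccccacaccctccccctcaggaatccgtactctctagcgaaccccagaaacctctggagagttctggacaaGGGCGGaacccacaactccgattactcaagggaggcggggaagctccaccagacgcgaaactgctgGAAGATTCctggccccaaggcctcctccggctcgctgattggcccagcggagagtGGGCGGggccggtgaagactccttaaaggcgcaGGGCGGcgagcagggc
The Hspa1a and Hspa1b stretches matched at 247 of 250 bases. A promoter was found for 8 of the 10 members, all but Egr1 and Ier2. GGGCGG stood in 7 of these 8, and in 32.9% of 27025 promoters of the same length. TGACG stood in 5 of 8 members and in 17.9% of promoters. The full element TGACGTCA, which contains TGACG on both strands, was present in Dusp1 and in 1.62% of promoters. GAANNTTC was present in Hspa1a, Hspa1b and Jun, 97 to 104 bases before the start in the first 2, and in 6.78% of promoters. The AP-1 site TGANTCA and the CArG box, which serum response factor binds, were in 0 of the 8 members, and in 6.87% and 1.4% of promoters. TATAAA was present in Fos and in 13% of promoters. These matches describe letters in a window and say nothing of whether a factor was bound.

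In the endothelial sum, which leaves out other endothelium, Fos, Fosb and Egr1 were lower in the SP3-null than in the WT library. Jun, Ier2, Junb, Dusp1, Atf3 and the heat shock genes differed less between the libraries in this sum. Fos stood at 52.5 CPM in the WT and 36.8 CPM in the SP3-null endothelial sum, a log2 ratio of -0.51 (interval -0.61 to -0.42). Fosb stood at 10.3 and 5.83 CPM, a log2 ratio of -0.82 (-1.06 to -0.59). Egr1 stood at 21.5 and 12.4 CPM, a log2 ratio of -0.79 (-0.95 to -0.63). These were the 3 of 10 members with a log2 ratio of -0.5 or lower, a size that 275 of 10146 genes with at least 200 UMIs reached, 2.71%. None of the 10 members was at 0.5 or higher, where 105 genes lay, 1.03%. Without the 1% of cells that held the most of each gene, the log2 ratios were -0.59 for Fos, -0.96 for Fosb and -1.01 for Egr1. The direction of these 3 genes was the same under all 10 other ways of scaling, weighting or selecting cells, but Fos stood at -0.49 to -0.46 in 4 of them, and Egr1 at -0.45 with the 9 classes weighted alike.

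The other AP-1 genes did not share the lower level of Fos. Jun stood at 258.0 CPM in the WT and 258.4 CPM in the SP3-null endothelial sum, a log2 ratio of 0.00 (-0.04 to 0.04), although it was -0.14 over all cells and -0.18 with the 9 classes weighted alike. In other endothelium Jun stood at -0.20 (-0.24 to -0.15). By mitochondrial share it stood there at -0.30 under 5%, 0.20 (0.07 to 0.32) at 5 to 10% and -0.10 (-0.32 to 0.11) at 10% or more. Junb was at 73.4 and 68.9 CPM, a log2 ratio of -0.09 (-0.17 to -0.02), and its sign turned when each cell was weighted alike (0.016). Ier2 was at 187 and 176 CPM, a log2 ratio of -0.09 (-0.14 to -0.05). The MAP kinase phosphatase gene Dusp1 was at 51.4 and 48.0 CPM, a log2 ratio of -0.10 (-0.19 to -0.01). Atf3 was at 66.9 and 71.5 CPM, a log2 ratio of 0.09 (0.02 to 0.17), and at -0.057 with the 9 classes weighted alike. The AP-1 partners Jun and Junb were thus at nearly the same level in both endothelial sums where Fos and Fosb were not.

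The sum of the 8 immediate early genes (IEG sum) was 721 CPM in the WT and 677 CPM in the SP3-null endothelial sum, a log2 ratio of -0.09 (-0.11 to -0.07). Jun and Ier2 gave most of these UMIs, so the sum says little of Fos, Fosb or Egr1. The median log2 ratio over the 10 members was -0.09, beside -0.02 over all 10146 genes, 95% of which lay between -0.52 and 0.33. Of the 10 members 7 were below 0, where 57.1% of all these genes lay, so this count is near the background. In the endothelial sum the IEG sum, as a single measure of handling, thus differed by a small amount between the libraries. The members did not move as a block there. The IEG sum stood at -0.20 (-0.23 to -0.17) in other endothelium, at -0.67 (-0.73 to -0.60) in IAC and at -0.18 over all cells. In other endothelium cells at 5 to 10% mitochondrial share it stood at 0.02 (-0.05 to 0.09). In HE its interval included 0, at 0.06 (-0.08 to 0.20), and in IAC all members were lower in the SP3-null library.

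The heat shock genes did not show a common direction in the endothelial sum. Hspa1a stood at 29.5 CPM in the WT and 34.3 CPM in the SP3-null endothelial sum, a log2 ratio of 0.22 (0.10 to 0.33). Hspa1b stood at 28.3 and 27.0 CPM, a log2 ratio of -0.07 (-0.19 to 0.05). In other endothelium as a whole, outside this sum, both were lower in the SP3-null library. Hspa1a stood there at -0.45 (-0.55 to -0.35), Hspa1b at -0.42 (-0.53 to -0.32) and the pair at -0.44 (-0.51 to -0.36). By mitochondrial share the pair in other endothelium stood at -0.56 under 5%, -0.20 at 5 to 10% and 0.16 (-0.08 to 0.41) at 10% or more. By depth it stood at 0.08 (-0.38 to 0.53) under 5000 UMIs, -0.25 at 5000 to 15000 and -0.47 in deeper cells. Over all cells, which add other endothelium, HE, IAC and FL-HSC, Hspa1a turned to -0.17 and the sum of both genes from 0.08 (0.00 to 0.17) to -0.24. No direction of the pair thus holds for the libraries as a whole. The coding parts of the genes are near copies: 48.1% of the 98-base windows of the Hspa1a transcript occur without a mismatch in Hspa1b. In the last 500 bases, where a 3′ kit reads, 0 of 403 windows of either transcript occurred in the other, but where reads fell was not examined, and values of a single gene of the pair are uncertain to that extent.

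Intra-aortic cluster cells carried the highest levels of Fos, Egr1, Jun, Hspa1a and Hspa1b by value in both libraries, and the lowest of Atf3. Egr1 reached 161 CPM (149 to 173) in WT IAC against 20.2 CPM (17.9 to 22.6) in WT AE, a log2 ratio of 2.99. In the SP3-null library it reached 104 CPM (93.7 to 115) against 9.89 CPM (8.32 to 11.7), a log2 ratio of 3.40. Fos reached 179 CPM (167 to 193) in WT IAC and 102 CPM (91.6 to 113) in SP3-null IAC, log2 ratios over AE of 1.88 and 2.02. Egr1 and Fos thus stood above AE by similar ratios in both libraries, over a lower AE level in the SP3-null one. The SP3-null Fos and Hspa1a levels of IAC did not differ from those of HE beyond counting error. Fosb was at 45.8 and 15.5 CPM in IAC, log2 ratios over AE of 2.26 and 2.10, and Jun at 631 and 395 CPM, log2 ratios of 1.2 and 0.57. The heat shock pair together reached 213 CPM (199 to 227) in WT IAC and 165 CPM (152 to 179) in SP3-null IAC, log2 ratios over AE of 2.42 and 2.18.

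Counted by size, 6 of 10 members were at a log2 ratio of 1 or higher in WT IAC over AE, where 8.12% of 9072 genes lay, and 5 of 10 in the SP3-null library, where 9.16% lay. Atf3 was the 1 member at -1 or lower, beside 16.8% of genes in the WT and 18.1% in the SP3-null library. Junb, Ier2 and Dusp1 lay between -0.67 and 0.14 in both libraries. Classes were assigned from expression, so these are descriptions of the classes and not tests.

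**Figure D1:**
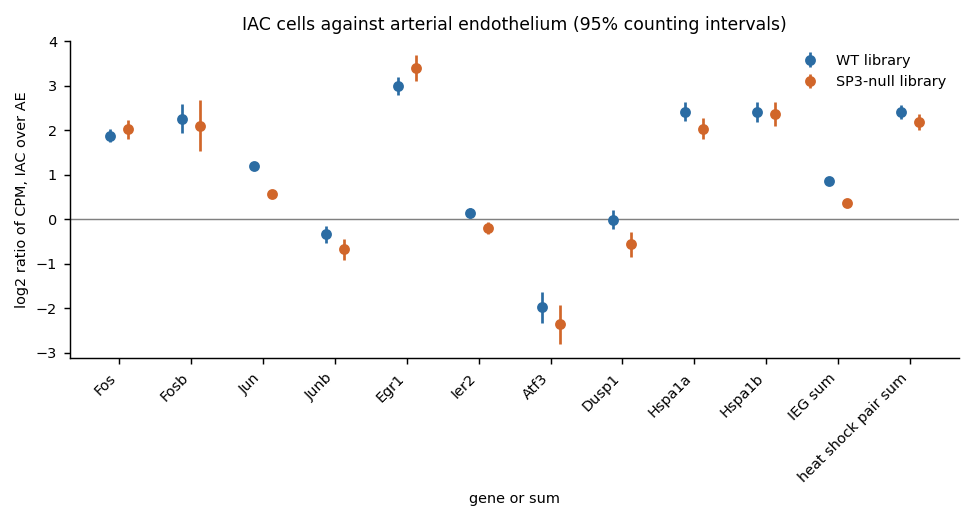
Log2 ratio of CPM in IAC cells over arterial endothelium for each member and for both sums, in the WT (blue) and SP3-null (orange) library, with 95% counting intervals. Egr1 stands highest at 2.99 and 3.40, both heat shock genes stand above 2, and Atf3 stands at -1.97 and -2.35.

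IAC cells differed from endothelium in more than these genes. The 7 hemogenic and blood markers together stood at 801 CPM in WT and 824 CPM in SP3-null IAC, and at 8.15 and 7.07 CPM in the endothelial sums. The summed markers of macrophages (6 of 6 detected) stood at 356 CPM in WT IAC and 430 CPM in SP3-null IAC, and at 5.44 and 3.95 CPM in the endothelial sums, while the 6 pan-endothelial markers stood at 401 and 400 CPM against 2072 and 2005 CPM. IAC cells with at least 2 UMIs in all of the macrophage genes Csf1r, Cx3cr1, Adgre1 and Mrc1 together were 12 of 128 WT and 11 of 107 SP3-null IAC cells. Without them the IEG sum of IAC over AE was 0.85 in the WT, beside 0.86 with them, and 0.24 in the SP3-null library, beside 0.36. The heat shock pair was at 2.52 and 2.16 without them. IAC cells were also the deepest, with medians of 31009 and 30343 UMIs against 13395.0 and 13756.5 in AE. With each cell thinned to 5000 UMIs the IEG sum of IAC over AE was 0.90 and 0.42 and the pair was 2.45 and 2.22.

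Within IAC, all 10 members were lower in the SP3-null library, and all but Atf3 had at least 200 UMIs there. Of these 9 members 9 were below 0, as were 54.7% of 4702 genes, and 6 were at -0.5 or lower, as were 2.11% of genes. Their median log2 ratio was -0.63, beside -0.02 over those genes. The IEG sum was 1372 CPM in the WT and 865 CPM in the SP3-null library, a log2 ratio of -0.67 (-0.73 to -0.60). Fosb differed most, at -1.56 (-2.03 to -1.12), followed by Fos at -0.82 (-1.0 to -0.63). Dusp1 and Jun both stood at -0.68, Egr1 at -0.63, Ier2 at -0.51 and Junb at -0.42, all with intervals below 0. The Atf3 interval, -0.96 to 0.16 around -0.39, included 0. The heat shock pair was at -0.36 (-0.52 to -0.21). Without the 3 cells of each library with the most UMIs of the sum, the IEG sum was at -0.75, and without the cells with macrophage UMIs at -0.78. Fos stood at -1.15 and Egr1 at -0.97 without their own 3 top cells of each library. Those cells held 25.3% of WT and 40.3% of SP3-null Fos UMIs, and 14.0% and 32.8% of Egr1 UMIs. Leaving them out takes a larger share from the SP3-null library, so it cannot show whether the difference rests on WT cells rich in these genes. Among IAC cells with at least 15000 UMIs the IEG sum was at -0.68, and among those with under 5% mitochondrial UMIs at -0.66. Xist, which is transcribed from the inactive X chromosome of female cells, stood at 320 CPM in WT and 190 CPM in SP3-null IAC, and 4 Y-linked genes together at 55.7 and 122 CPM, against 387 and 434 CPM and 61.5 and 67.7 CPM in the endothelial sums. The IAC cells of the libraries thus also differed in sex-linked transcripts, and the part of this in the IAC difference was not tested.

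The share of cells that carried a transcript was read from cells thinned to 5000 UMIs each, which left out 2 WT and 4 SP3-null IAC cells. Egr1 was found in 39.7% (31.1 to 48.8) of WT and 18.4% (11.5 to 27.3) of SP3-null IAC cells, and in 57.0% and 30.8% without thinning. Jun was found in 82.5% (74.8 to 88.7) and 68.0% (58.0 to 76.8) of thinned cells, and in 96.9% and 93.5% unthinned. For Fos the thinned shares were 24.6% (17.4 to 33.1) and 22.3% (14.7 to 31.6), and the unthinned 50% and 34.6%. At equal depth the intervals of the libraries were apart for Egr1 and overlapped for Jun and Fos. No class here can be taken to lack these genes, so the share that free RNA would give was not known.

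**Figure D2:**
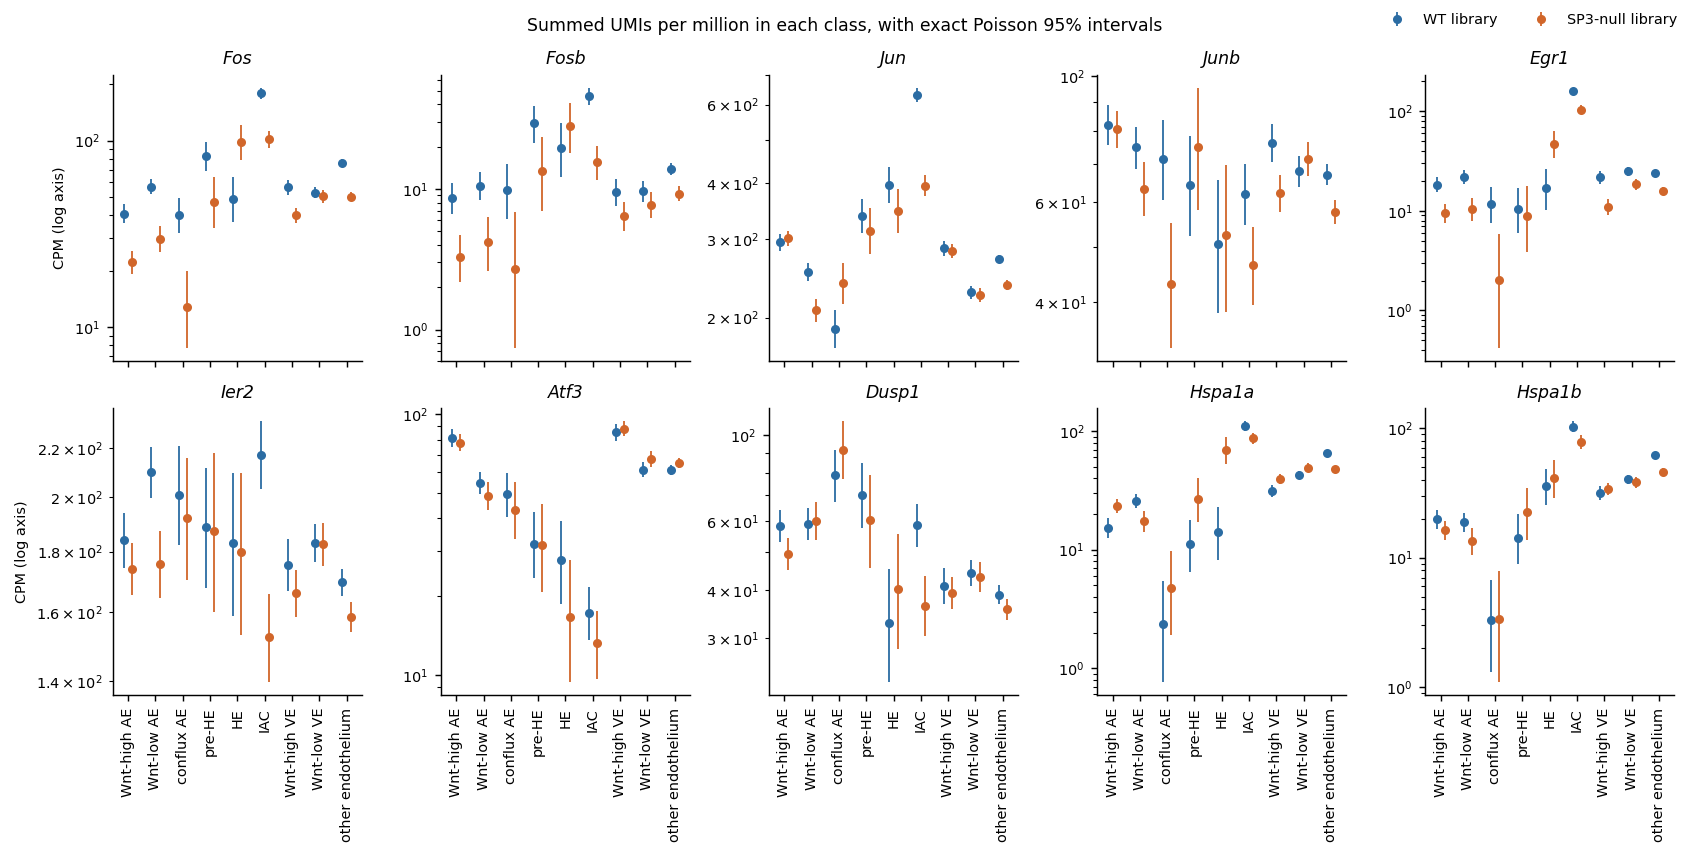
CPM (log axes, each panel with its own range) of the 10 members in each of the 9 classes, WT in blue and SP3-null in orange, with exact Poisson 95% intervals. IAC stands highest for Fos, Jun, Egr1, Hspa1a and Hspa1b in both libraries, though SP3-null HE overlaps it for Fos and Hspa1a, Atf3 declines from arterial endothelium to IAC, and conflux AE holds the lowest Hspa1a and Hspa1b.

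Atf3 was lower by value at each step from AE through conflux AE, pre-HE and HE to IAC. Both AE classes together stood at 68.0 CPM in the WT and 67.1 CPM in the SP3-null library. Wnt-high and Wnt-low AE are not successive steps, since the paper describes them as streams that converge in conflux AE. In the WT library Atf3 stood at 81.5 CPM in Wnt-high AE, 54.6 in Wnt-low AE, 49.3 in conflux AE, 31.9 in pre-HE, 27.6 in HE and 17.3 in IAC. In the SP3-null library the same classes gave 78.0, 48.7, 43.1, 31.4, 16.7 and 13.2 CPM. The order was the same in both libraries, but Wnt-low AE and conflux AE did not differ beyond counting error, nor did pre-HE and HE, nor, in the SP3-null library, conflux AE and pre-HE or HE and IAC. Junb was also lower in IAC than in AE, at log2 ratios of -0.34 (-0.54 to -0.14) and -0.67 (-0.92 to -0.43), and in HE, at -0.63 and -0.50. Atf3 was higher in Wnt-high than in Wnt-low cells of both vessel types: in VE it stood at 85.3 and 61.4 CPM in the WT and at 88.3 and 67.4 CPM in the SP3-null library.

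In the WT library Jun was higher at each step from conflux AE on: it went from 274 CPM (265 to 282) in AE and 189 CPM (171 to 208) in conflux AE to 338 in pre-HE, 396 in HE and 631 in IAC. In the SP3-null library it went from 266 in AE and 239 in conflux AE to 313, 347 and 395 CPM, and there HE did not differ from pre-HE beyond counting error. Junb showed no comparable order, with values from 50.7 to 82.2 CPM over the WT classes and between 43.1 and 80.7 CPM over the SP3-null ones. Ier2 was the most even member, from 170 to 217 CPM and from 152 to 192 CPM. Dusp1 was highest in conflux AE in both libraries, at 78.9 CPM (67.4 to 91.7) and 91.7 CPM (76.9 to 108), and in the WT library conflux AE and pre-HE did not differ beyond counting error.

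The heat shock pair was lowest in conflux AE in both libraries. The sum stood at 5.63 CPM (2.91 to 9.84) in WT conflux AE and at 8.09 CPM (4.18 to 14.1) in SP3-null conflux AE, log2 ratios over AE of -2.82 and -2.17. In VE it stood above AE by a log2 ratio of 0.93 (0.79 to 1.06) in the WT and 1.15 (1.01 to 1.29) in the SP3-null library, and in other endothelium by 1.68 and 1.38. The IEG sum of VE over AE was -0.11 and 0.01, but it is mostly Jun and Ier2. Fos, Fosb and Egr1 stood above AE in SP3-null VE, at 0.85 (0.67 to 1.03), 0.98 (0.52 to 1.46) and 0.58 (0.30 to 0.88), and at 0.15 (0.01 to 0.28), -0.00011 (-0.31 to 0.31) and 0.25 (0.04 to 0.45) in WT VE. Median UMIs per cell were 9248.5 and 8850.0 in conflux AE, 14358.5 and 16693.5 in VE. In thinned cells the pair was found in 3.6% and 4.7% of conflux AE cells, against 10.4% and 8.9% of AE and 16.2% and 17.8% of VE cells.

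The arterial, venous, conflux AE and pre-HE classes are the parts of the endothelial sum, so their agreement with it is partly fixed. Outside it, other endothelium stood at -0.60 for Fos, -0.59 for Fosb and -0.59 for Egr1. In IAC these 3 genes were also lower in the SP3-null library, with HE as the exception among the classes. Each of these genes was lower in the SP3-null library in 8 of 9 classes, and the interval lay below 0 in 7 of 9. With Ier2, which was below 0 in 9 of 9, 4 of 10 members were below 0 in at least 8 classes, as were 11.7% of 9779 genes with UMIs in every class. Fos ratios ran from -1.64 (-2.44 to -0.91) in conflux AE, where it rested on 85 WT and 19 SP3-null UMIs, to -0.07 in Wnt-low VE among the classes below 0. Xist stood at 354 and 689 CPM in conflux AE and the 4 Y-linked genes at 91.6 and 87.6 CPM, and the part of embryo sex in these ratios was not tested. Egr1 ran from -2.54 (-4.91 to -0.82) in conflux AE to -0.21 (-1.65 to 1.09) in pre-HE. In AE the ratios were -0.96 for Fos, -1.41 for Fosb and -1.03 for Egr1, and in VE -0.26, -0.43 and -0.69. Whether the arterial and venous ratios differ was not tested.

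**Figure D3:**
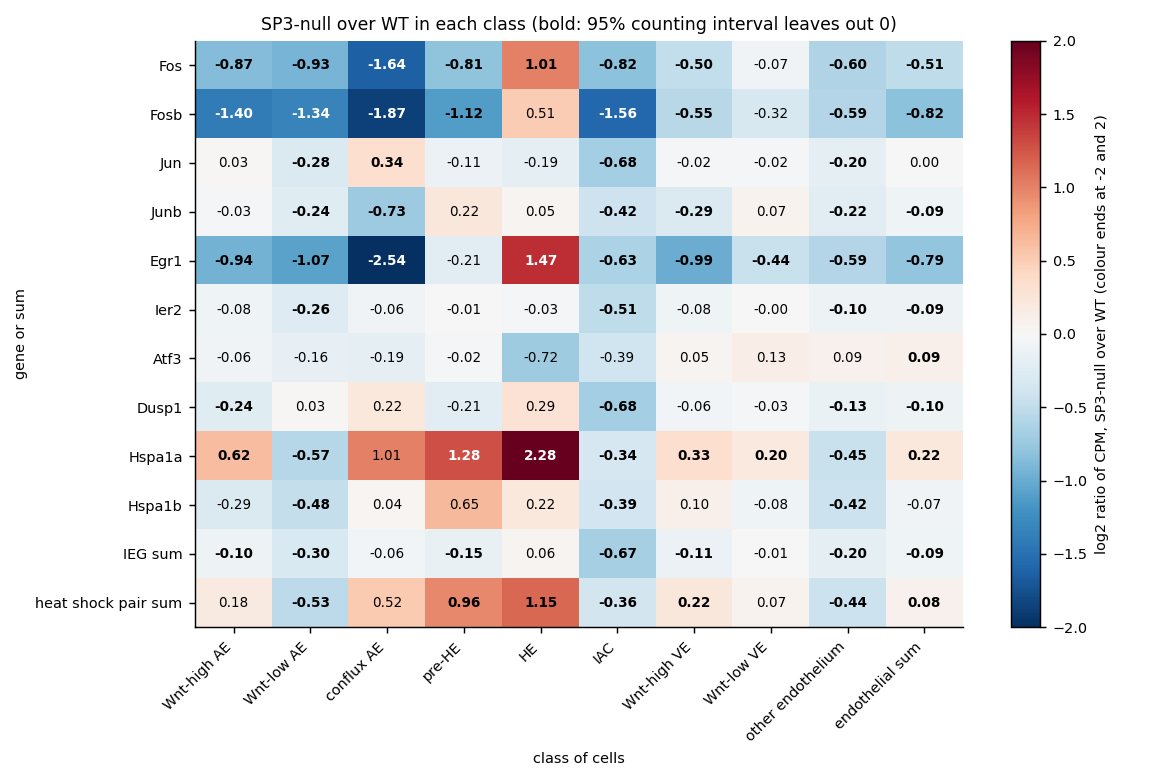
Log2 ratio of CPM, SP3-null over WT, for each member and both sums (rows) in the 9 classes and the endothelial sum (columns). Bold values have a 95% counting interval that leaves out 0. Fos, Fosb and Egr1 are blue, lower in SP3-null cells, in every class except HE, IAC is blue for all members, and Hspa1a ranges from -0.57 in Wnt-low AE to 2.28 in HE.

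HE was the smallest class, with 59 WT and 40 SP3-null cells. There Fos stood at 48.9 CPM in the WT and 98.3 CPM in the SP3-null library, a log2 ratio of 1.01 (0.50 to 1.52), and Egr1 at 16.9 and 46.9 CPM, a log2 ratio of 1.47 (0.66 to 2.34). Of the 88 Fos UMIs of SP3-null HE, 75 lay in 3 cells, and of the 42 Egr1 UMIs 34 lay in 3 cells. Without the 3 cells of each library with the most UMIs of the gene, Fos stood at 16.3 and 17.0 CPM and Egr1 rested on 3 and 8 UMIs. Hspa1a stood at 14.2 and 69.2 CPM, and without the 3 top cells at 1.85 and 38.4 CPM, from 2 and 31 UMIs. The HE ratio of Fos thus rested on 3 cells a library, while that of Hspa1a was spread over more SP3-null cells. For its near copy Hspa1b the interval included 0: that gene stood at 35.6 and 41.3 CPM, a log2 ratio of 0.22 (-0.47 to 0.90). Without its 3 top cells of each library Hspa1b stood at 16.2 and 15.7 CPM. The pair together stood at 1.15 (0.66 to 1.65), and at 22.3 and 59.5 CPM without its 3 top cells of each library. The higher SP3-null level in HE was thus counted under Hspa1a. Since where reads fell in these near copies was not examined, it cannot be told whether 1 or both genes differed. Xist stood at 692 and 308 CPM and the 4 Y-linked genes at 32.9 and 117 CPM in HE, and the part of embryo sex and of single embryos in the HE values was not tested.

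The same transcripts were concentrated in few cells in endothelium too. In the WT endothelial sum, the 26 cells richest in each gene (1% of cells) held 29.8% of Fos UMIs, 34.3% of Fosb, 34.9% of Egr1, 34.9% of Hspa1a and 26.6% of Hspa1b. The same share of cells held 6.3% of Ier2, 10.7% of Dusp1, 11.0% of Jun, 13.6% of Atf3 and 15.1% of Junb UMIs. In the SP3-null library the 24 top cells held 33.8% of Fos, 40.0% of Fosb and 44.2% of Egr1. Counting intervals leave out such clustering and are thus too narrow, most plainly for Fos, Fosb, Egr1 and the heat shock genes but not only for them. How levels would vary between captures cannot be read for any gene, with 1 library per genotype.

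After thinning and centring within class and library, the variance over the mean was 3.0 for Fos, 2.47 for Hspa1a and 2.37 for Jun, the 3 of 8 members with a mean of at least 0.1 thinned UMIs that reached 2. Over 5548 genes with that mean the median was 1.05, and 1.8% reached 2. Egr1 and Fosb, with lower means, were at 2.30 and 1.62, and Hspa1b was at 1.96. Ier2, at 1.2, and Dusp1, at 1.26, varied little more between cells than the median gene.

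Cells that held one member tended to hold others, weakly. Over 7191 cells thinned to 5000 UMIs, centred within class and library, the 45 pairs of members had a median Pearson r of 0.084, from -0.00091 (Ier2 with Hspa1b) to 0.37 (Hspa1a with Hspa1b), and 5 pairs were above 0.2. These were the heat shock pair and Fos with Fosb (0.31), with Egr1 (0.29), with Jun (0.25) and with Junb (0.23). Fos with Egr1 gave 0.29 among WT and 0.30 among SP3-null cells. Jun was the immediate early gene closest to the heat shock genes, at 0.18 with Hspa1a and 0.14 with Hspa1b. The cells of each correlation share their library, and in sparse counts such values describe how UMIs fell and no more.

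**Figure D4:**
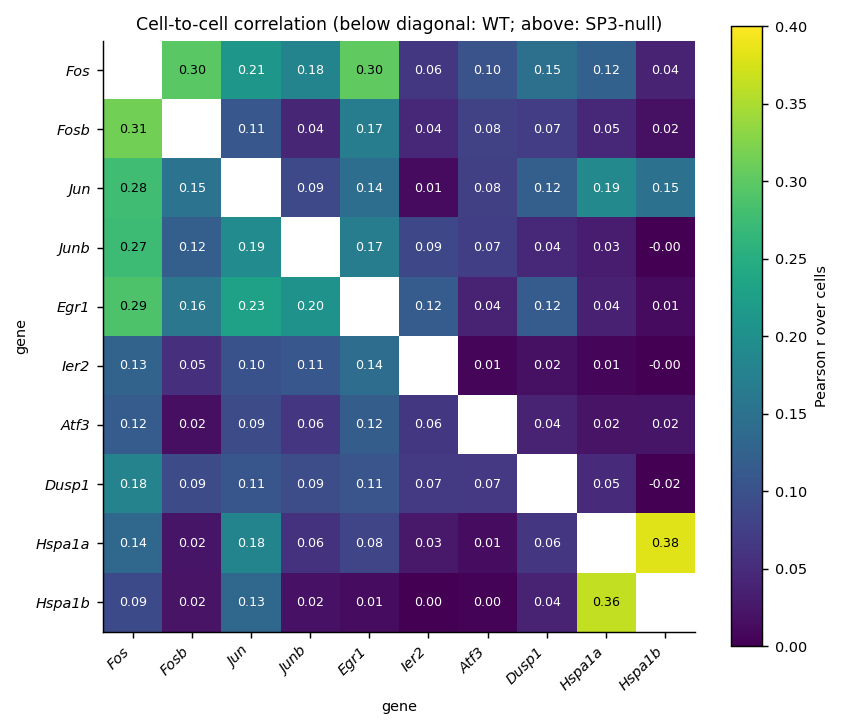
Pearson r between members over cells thinned to 5000 UMIs, on log2(1 + count) centred within class and library, for WT cells below the diagonal and SP3-null cells above it. The heat shock pair (0.36 and 0.38) and Fos with Fosb and Egr1 stand highest. Ier2 is near 0 with the heat shock genes, and reaches 0.14 in WT and 0.12 in SP3-null cells with Egr1.

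Of the genes outside the list, Jund (r = 0.27), which encodes another AP-1 partner, Klf6 (0.22) and the flow-responsive factor gene Klf2 (0.22) followed the IEG sum most closely from cell to cell. Btg2, Apold1, Cyr61, Ppp1r15a, Meg3, Klf4, Malat1, Rhob and Hsp90ab1 came next, between 0.18 and 0.13, and the median over the 5548 genes was 0.0081. Thinning to 3000 UMIs gave 10 of these 12 genes again. In the endothelial sum Klf2 stood at 269 and 229 CPM, a log2 ratio of -0.23 (-0.27 to -0.19), Klf6 at -0.24 (-0.30 to -0.18) and Jund at -0.07 (-0.12 to -0.02). The genes closest to the heat shock pair were the nuclear RNA Malat1 (0.15), the proliferation gene Top2a (0.11), the chaperone genes Hsph1 (0.11) and Hsp90aa1 (0.11), then Klf2, Adgrl2, Slk and Klf6 between 0.11 and 0.092. Over the 18 class by library levels, Phf10, Setd7, Brpf1, Htt, Mboat7, Zfp36 and Tbc1d5 were among the genes with a pattern most like the IEG sum, of 8446 genes, with r from 0.87 to 0.83. The IEG sum was 1372 CPM in WT IAC and between 600 and 865 CPM at all other levels, so WT IAC weighs heavily in these r values. From cell to cell the r with the IEG sum was 0.15 for Zfp36, and from 0.0095 (Tbc1d5) to 0.034 (Phf10) for the others named.

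Depth and mitochondrial share went with the level of most members. In WT cells of the endothelial sum, Fos stood at 13.3 CPM (8.41 to 19.9) in cells with under 5000 UMIs, at 29.2 CPM (25.9 to 32.8) in those with 5000 to 15000 and at 62.0 CPM (59.3 to 64.9) in deeper cells. The SP3-null values were 15.6, 17.2 and 43.8 CPM. Atf3 went from 30.6 through 50.3 to 74.2 CPM in WT cells, and SP3-null cells gave 31.2, 48.5 and 80.3 CPM. By mitochondrial share, WT Fos stood at 66.9 CPM in cells under 5%, 36.2 at 5 to 10% and 17.8 at 10% or more, and SP3-null Fos at 45.4, 24.0 and 11.7 CPM. CPM corrects for depth, and these members were nevertheless higher in CPM in deep cells and, grouped separately, in cells of low mitochondrial share. The groupings were not crossed. They also mix classes of unlike depth, such as WT conflux AE with a median of 9248.5 UMIs and WT Wnt-high AE with 13401.0. Hspa1a did not share this course: in the WT it was at 37.5, 15.5 and 23.9 CPM over the same mitochondrial groups.

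Within these groups of the endothelial sum the library ratios of Egr1 stayed below 0, at -0.81, -0.81 and -0.80 by depth from the shallowest and -0.81, -0.93 and -0.68 by mitochondrial share from the lowest, with 0 inside the interval in the shallowest cells (-2.46 to 0.64) and in those of the highest share (-1.41 to 0.03). In other endothelium, outside this sum, the Egr1 ratio was not of 1 sign: it stood at 0.66 (0.13 to 1.19) in cells with 5000 to 15000 UMIs and at -0.74 (-0.93 to -0.56) in deeper cells, and at 0.15 (-0.26 to 0.55) at 5 to 10% mitochondrial share. Fos there stood at 0.33 (-0.13 to 0.80) in cells with 5000 to 15000 UMIs and at -0.65 (-0.75 to -0.55) in deeper cells. In the endothelial sum Fos was at 0.24 (-0.72 to 1.18) in the shallowest cells, on 23 and 19 UMIs, then at -0.76 and -0.50, and at -0.56, -0.59 and -0.61 by mitochondrial share. Median mitochondrial shares were 5.39% in the WT and 4.94% in the SP3-null library, with 27.5% and 23.5% of cells at 10% or more. Median UMIs per cell were 14664 and 15638.5 over all cells, and 14475.5 and 19230 in Wnt-high VE.

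**Figure D5:**
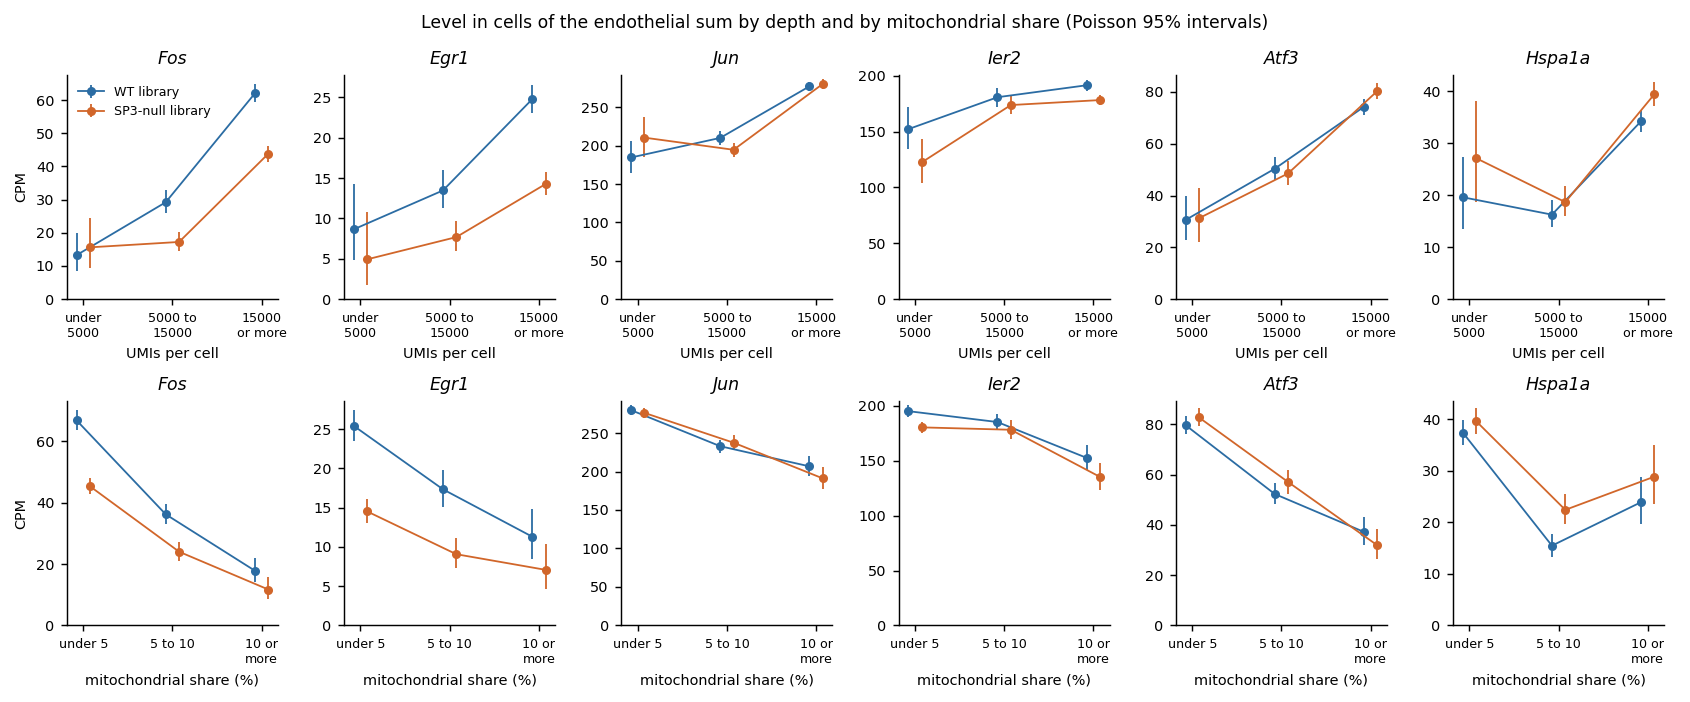
CPM of 6 members in cells of the endothelial sum, grouped by UMIs per cell (upper row) and by mitochondrial share (lower row), WT in blue and SP3-null in orange, with Poisson 95% intervals and axes from 0. Fos, Egr1, Jun, Ier2 and Atf3 are highest in the deepest cells and lower in cells of high mitochondrial share, and the SP3-null line of Egr1 lies under the WT line throughout.

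Other immediate early genes had the same modest median. Of 40 listed, 35 had at least 200 UMIs in the endothelial sums, and 27 of these were below and 8 above 0, with a median log2 ratio of -0.09. Over all 10146 genes with that minimum 57.1% were below 0, 2.71% at -0.5 or lower and 1.03% at 0.5 or higher. At -0.5 or lower lay 4 of 35: Nfkbiz, an inhibitor of kappa B family gene, at -0.82 (-1.07 to -0.57), Zfp36, which encodes an mRNA decay factor, at -0.60, Csrnp1 at -0.54 and the cytokine signalling inhibitor gene Socs3 at -0.53. Bhlhe40 was the 1 gene at 0.5 or higher, at 0.54 (0.32 to 0.77). The most abundant, Klf2, Zfp36l1 and Mcl1, were at -0.23, 0.04 and -0.01.

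Other heat shock and stress chaperone genes, constitutive and inducible, had a median near 0. Of 26 listed, 22 had at least 200 UMIs, 19 of them below and 3 above 0, with a median of -0.05 and 0 past 0.5 in either direction. Over all 10146 genes 57.1% were below 0, 2.71% at -0.5 or lower and 1.03% at 0.5 or higher. Hsp90ab1, Hspa8 and Hsp90aa1, at 5153, 1999 and 1105 CPM in the WT, lay between -0.04 and -0.03. Hspa4l was lowest at -0.36 (-0.58 to -0.15) and the heme oxygenase gene Hmox1 highest at 0.11. In IAC over AE, Hsp90aa1 was at 1.16 in both libraries, Hspa8 at 0.60 and 0.68, Hsp90ab1 at 0.41 and 0.43, Hspa4l at 1.79 and 1.77 and Hmox1 at 1.92 and 1.44.

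Genes upstream of the members and of related stress pathways showed 0 genes past 0.5 in either direction. Few genes lay there at all, 2.71% of all 10146 genes at -0.5 or lower and 1.03% at 0.5 or higher. The 20 upstream factors and kinases had a median of -0.07, with 17 below 0, beside 57.1% of all genes. The serum response cofactor gene Elk3 was at -0.05, the kinase gene Map2k2 at -0.0012, Mapk8 (JNK1) lowest at -0.23 (-0.33 to -0.13) and Mapk3 highest at 0.05. Of 17 unfolded protein and integrated stress response genes, 14 were counted, 9 of them above 0, with a median of 0.03. Hsp90b1, Calr and Pdia4 were at -0.05, -0.03 and 0.11, Sesn2 lowest at -0.35 and Ddit3 highest at 0.19. Of 14 inducible inflammatory genes 5 were counted, with a median of -0.16. Nfkb1 was at -0.16, Icam1 at 0.13, Nfkb2 at -0.21, Irf1 lowest at -0.44 (-0.80 to -0.09) and Birc3 highest at 0.23.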

How the data were processed

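Single-cell libraries of sorted aortic endothelium, 1 from WT and 1 from SP3-null embryos, were made with a 3′ UMI kit. Per the labels and the study's methods, the authors aligned reads to mm10 with Cell Ranger (version not given in the sources used here), removed cells with few UMIs or genes and contaminating cells, and deposited raw UMI counts per gene and cell with a cell table. The deposited cell table gives each cell's class, assigned by nearest neighbours on a projected map, its UMI total and its mitochondrial UMIs, a share that is given here as a percent; 2 of its columns of per-cell values were not used.

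From these counts, UMIs were summed by class and library and expressed as CPM with exact Poisson intervals. Intervals of ratios are exact conditional ones and those of cell shares are Clopper-Pearson, at 95%, and all cover counting error only. Classes were taken as deposited, 5 barcodes occur in both libraries, and no doublet caller was run. Cells were thinned to 5000 UMIs (alternative 3000) for shares and correlations, on log2(1 + count). Genes were counted above 200 UMIs. The text names all 10 members, the 3 most abundant and the highest and lowest genes of each list, genes past 0.5, and the genes most correlated with each sum (12, 8 and 8); some genes this rule names are not reported here. Members and lists were chosen with earlier results of these data known. Scaling alternatives used edgeR 4.0.16 and DESeq2 1.42.0 factors (R 4.3.3) with no test. Scripts were tested on simulated data. Python 3.11.15, numpy 2.4.6, scipy 1.17.1 and pandas 2.3.3 were used.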

Additional observations from a re-analysis of the deposited data

Results flagged for a closer look

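Several members had SP3-null over WT log2 ratios of opposite sign in 2 classes, each with a counting interval that left out 0. The differences between classes were not tested, since each genotype had 1 library. Fos stood at -1.64 in conflux AE and at 1.01 in HE, and Egr1 at -2.54 and 1.47 in the same classes. In HE, with 59 WT and 40 SP3-null cells, 3 cells held 85.2% of the SP3-null Fos UMIs and 81.0% of the Egr1 UMIs, and without the top 3 cells of each library Fos stood at 0.06. Hspa1a stood at -0.57 in Wnt-low AE and at 2.28 in HE, and the heat shock pair at -0.53 and 1.15. Hspa1b in HE stood at 0.22 (-0.47 to 0.90). Jun stood at -0.68 in IAC and at 0.34 in conflux AE, on 402 WT and 354 SP3-null UMIs in the latter.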

How the results depend on the processing

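Of 344 alternative values, 246 stayed within the counting interval of the reported value or within 1.5 times a reported count, 92 lay outside it with the same sign and 6 turned sign. Over all cells the SP3-null over WT ratio was -0.17 for Hspa1a, -0.24 for the heat shock pair and -0.18 for the IEG sum, and the median member stood at -0.16. With the 9 classes weighted alike Atf3 stood at -0.057, the IEG sum at -0.20 and the median member at -0.16, and 1 member (Fosb) in place of 3 was at -0.5 or lower. With each cell weighted alike Junb stood at 0.016 and the IEG sum at -0.067. The pair stood at 0.19 both without the 5% of cells with most UMIs and in cells thinned to 5000 UMIs. Against AE, the IEG sum of WT conflux AE was 0.0087 in thinned cells, and that of SP3-null HE was -0.21 without the 5% deepest cells. The IEG sum of WT IAC over AE was 0.81 without the deepest cells and 0.91 with each cell weighted alike. In SP3-null IAC it was 0.42 thinned, 0.43 with each cell weighted alike and 0.24 without the cells with macrophage UMIs, and the pair was 2.45 with each cell weighted alike. The cause of these shifts was not tested.

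Leaving out cells rich in a member or with macrophage UMIs was chosen after seeing the data. With 1 library per genotype there was no replicate to leave out. No paired analysis was possible because each genotype has 1 library and no test was run. Fos, Egr1 and Hspa1a in conflux AE, pre-HE and HE rest on few UMIs, which limits what their ratios can show.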
